A study of Homo sapiens with 9 samples.

Results

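RN7SL1, RN7SL2, RN7SK, RMRP and RPPH1 are short structured RNAs made by RNA polymerase III (Pol III) and not translated. They were picked by symbol, with the high share of counts of RN7SL1 known, for the share of counts that such RNAs take in each library. The members are 5 of 59653 gene rows in the table, and 2 of the 5, RN7SL1 and RMRP, held any count. RN7SL2, RN7SK and RPPH1 were listed at 0 in all 9 libraries. RN7SL3, a close copy of RN7SL1 that is not a member, is given beside them because its reads can be hard to tell from those of RN7SL1.

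The libraries are bulk RNA-seq of K-562, a human chronic myeloid leukaemia line, with the genotype B2M tdTomato. B2M encodes the light chain of MHC class I, and tdTomato is a red fluorescent protein. The 3 groups of 3 libraries were mock-treated cells, cells treated with a tripartite ETR, a silencing agent directed to B2M by a full length gRNA, and cells treated with that tripartite ETR and a shorter gRNA of 16 nt. The agents went in by nucleofection, as mRNA for the ETR, and the labels do not say what mock cells received, how long after delivery RNA was taken, or whether libraries of a group came from separate cultures. The p-values therefore measure the spread among these samples only, and that spread may be technical. Total RNA was extracted on a silica column kit, and whether poly(A) RNA was selected or ribosomal RNA depleted is not given in the sources used here.

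Library totals ran from 23763529 to 33260228 counts. B2M, the targeted gene, had 3681, 4304 and 3718 counts after mock treatment, in the order of the replicate numbers. Its counts were 309, 268 and 216 for the full length gRNA, and for the 16-nt gRNA they were 462, 714 and 423, so every ETR library lay below every mock library. The cells are labelled lymphoblast. All 9 listed K-562 markers were counted, and their summed share was 0.124% to 0.171% of counts, against 0.000222% to 0.000374% for 6 lymphocyte markers, of which MS4A1 was at 0. Markers of monocytes and granulocytes summed to 2.36e-05% to 0.000106%, and those of fibroblasts and epithelia to 0.00380% to 0.00490%, mostly EPCAM. No marker was called between groups by edgeR, against 0.00657% of all genes tested in each comparison. HBE1, an embryonic globin gene, differed most among the K-562 markers, at -0.70 on the log2 scale between the gRNAs (adjusted p = 1.00). Both ETR libraries of replicate 3 held the highest RN7SL1 shares and resembled each other more than any other same-numbered pair (r = 0.57 of their deviations from the group means across genes). Values without them are given where they matter.

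Pol III makes transfer RNA, 5S ribosomal RNA and a set of small RNAs that work inside ribonucleoprotein particles. The 7SL RNA, made from RN7SL1 and its copies, is the scaffold of the signal recognition particle (SRP), which brings ribosomes that are making secreted and membrane proteins to the endoplasmic reticulum. 7SK RNA, from RN7SK, holds the elongation factor P-TEFb in an inactive complex with HEXIM proteins. RMRP is the RNA of RNase MRP, which takes part in ribosomal RNA processing, and RPPH1 is the catalytic RNA of RNase P, which trims the leader of transfer RNA precursors. Most of these RNAs lack a poly(A) tail, so the kind of library bears on how much of each is read.

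RN7SL2 was listed at 0 while RN7SL1 and RN7SL3, which are close copies of the same RNA, were among the 3 highest rows of every library. How the authors counted reads that match several copies is not given in the sources used here. The split of counts between RN7SL1 and RN7SL3 is therefore uncertain.

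The loci are given in GRCh38 coordinates, which were the same in the deposited table and in GENCODE release 29. RN7SL1 lies on chr14:49586580-49586878, plus strand, within the span of RPS29, which is on the minus strand, and shares no exon base with it. RN7SL2 lies on chr14:49862550-49862849, minus strand, 8636 bases from RN7SL3 on chr14:49853616-49853914, also minus. RN7SK lies on chr6:52995621-52995948, plus strand. RMRP lies on chr9:35657751-35658018, minus strand, 272 bases from CCDC107 on the other strand, and GENCODE release 29 holds 2 gene models under its symbol. RPPH1 lies on chr14:20343075-20343407, minus strand, 175 bases from PARP2 on the other strand.

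The 3 members listed at 0 were also the 3 that lie wholly inside an exon of another row on the same strand. All 300 bases of RN7SL2 lie in an exon of AL627171.2, an uncharacterised transcript with 14 to 30 counts per library. All 328 bases of RN7SK lie in AL162581.1, at 0 in all 9 libraries. All 333 bases of RPPH1 lie in AL355075.4, with 0 to 4 counts. RN7SL1, RN7SL3 and RMRP share no exon base with any row.

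**Figure D1:**
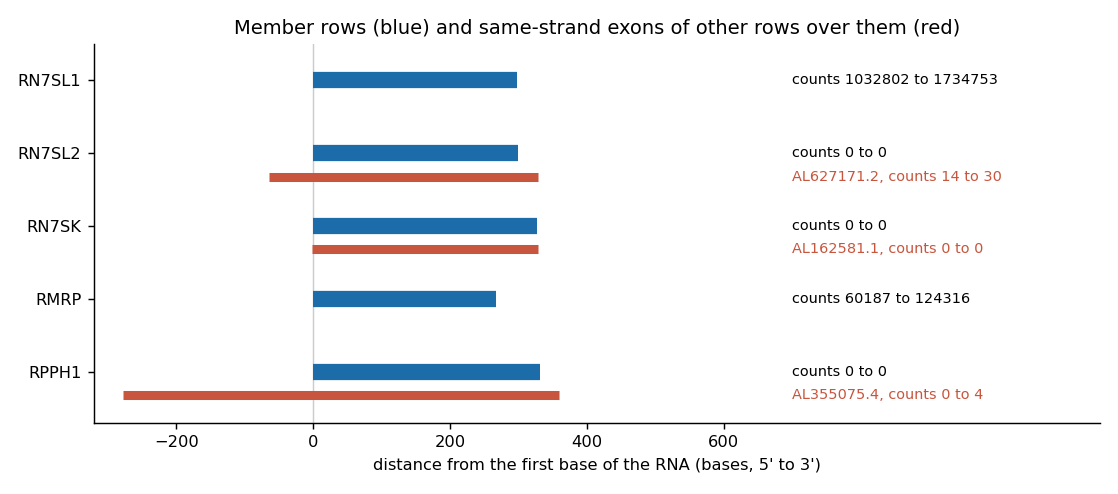
Position of each of the 5 RNAs (blue) and of the same-strand exon of another row that covers it (red), as distance in bases from the first base of the RNA. Text on the right gives the lowest and highest count over 9 libraries: RN7SL2, RN7SK and RPPH1 are covered from end to end and at 0, and RN7SL1 and RMRP are not covered and hold counts.

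Rows of the whole table showed the same relation between position and count. Of 1227 rows with every base inside same-strand exons of another row, 1117 (91.0%) were at 0 in all libraries. Of 758 rows covered on the opposite strand only, 392 (51.7%) were at 0, and of 41415 rows that share no base, 21074 (50.9%) were at 0. Among rows of 200 to 400 bases, the size of the members, 122 of 124 covered on the same strand were at 0 (98.4%). The highest total over 9 libraries among those 124 was 2 counts. Those 124 rows, and the 1227, include RN7SL2, RN7SK and RPPH1. In that size range 3943 of 5722 rows with no shared base were at 0 (68.9%). A 0 for RN7SL2, RN7SK or RPPH1 is thus a property shared with nearly all covered rows of their size, and no level of these RNAs in the cells can be read from it. Whether reads on them were set aside in counting was not tested.

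Rows for pseudogene copies of these RNAs held little. The 677 rows named as copies of RN7SL, of which 407 had any count, held 1847 to 2764 counts per library, 0.128% of the counts on all RN7SL rows. RN7SL4P had the most, 655 to 967 counts, followed by RN7SL128P with 136 to 340 and RN7SL674P with 73 to 121. RN7SL128P was called by replicate number with edgeR (adjusted p = 0.0174), as were 1.15% of all genes tested. Of 293 RN7SK copies, 101 had a count, and together they held 121 to 188 counts per library, led by RN7SKP9 with 19 to 44, RN7SKP255 with 17 to 38 and RN7SKP203 with 15 to 28. The single RMRP copy and the 2 RPPH1 copies were at 0. Among the neighbours within 10 kb was RN7SL3 beside RN7SL2. Of the others, RPS29, a ribosomal protein gene around RN7SL1, had 2707 to 5448 counts, CCDC107 beside RMRP 357 to 484, GSTA4 beside RN7SK 334 to 510, and PARP2, a DNA repair enzyme gene beside RPPH1, 789 to 1232. None of these neighbours was called between groups by edgeR (adjusted p of 0.978 or above), against 0.00657% of all genes tested in each comparison. RPS29 differed most of RPS29, CCDC107, GSTA4 and PARP2, at 0.39 on the log2 scale with the full length gRNA against mock.

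RN7SL1 was the most counted row in every library. Its counts in mock replicates 1 to 3 were 1413442, 1734753 and 1059687, or 5.56%, 5.22% and 4.0% of each total. With the full length gRNA they were 1370732, 1162785 and 1583197, or 4.76%, 4.10% and 6.66%. With the 16-nt gRNA they were 1368584, 1032802 and 1535874, or 5.39%, 3.36% and 5.95%. The highest share, in full length replicate 3, was 1.98 times the lowest, in 16-nt replicate 2, and both of those libraries come from ETR-treated cells. The ranges of the 3 groups overlapped. In bulk RNA, fewer cells and less RNA per cell cannot be told apart. Exact binomial 95% intervals, which cover counting error only, were narrow at this depth (6.65% to 6.67% for the highest share).

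RMRP ranked between 9th and 23rd by count, and 3rd in every library after division by length, behind RN7SL1 and RN7SL3. In the mock group it had 121351, 117102 and 60187 counts, or 0.477%, 0.352% and 0.227% of totals. With the full length gRNA they were 124316, 94752 and 96682, or 0.431%, 0.334% and 0.407%. With the 16-nt gRNA they were 81358, 74803 and 93582, or 0.321%, 0.243% and 0.362%. The mock group alone held both the highest and the lowest share, 2.10 times apart, so its range enclosed both ETR groups.

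RN7SL3 took 1.19%, 1.39% and 1.21% of mock counts. Its shares were 1.03%, 0.855% and 1.54% for the full length gRNA, and for the 16-nt gRNA they were 1.49%, 0.872% and 1.47%. Its rank by count was 2 or 3. The ratio of RN7SL1 to RN7SL3 counts ran from 3.31 in mock replicate 3 to 4.80 in full length replicate 2. The 5 members together took 3.6% to 7.07% of a library, nearly all of it RN7SL1, which outnumbered RMRP 11 to 17.6 times. As CPM per kilobase of RNA, the mock mean of RN7SL1 was 164721 ± 27306 (SD, n = 3) and that of RMRP 13141 ± 4659 (SD, n = 3).

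**Figure D2:**
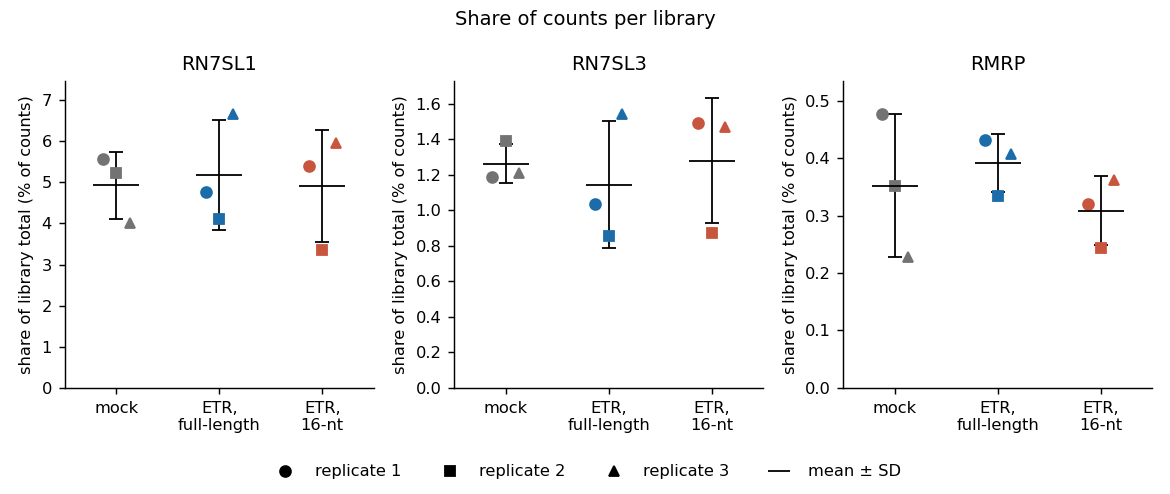
Share of each library's counts (%) taken by RN7SL1, RN7SL3 and RMRP, 1 point per library, with the mean and SD of each group of 3 (bars) and the replicate number as the point's shape. The groups overlap for each RNA, and in both ETR groups replicate 2 is the lowest for each of the 3 RNAs.

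The first question was whether the ETR groups differed from mock cells. Neither counted member was called different. In mock cells RN7SL1 took 4.93% ± 0.816 of counts (SD, n = 3), against 5.17% ± 1.33 for the full length gRNA, and for the 16-nt gRNA 4.90% ± 1.36 (SD, n = 3 each). RMRP took 0.352% ± 0.125, 0.391% ± 0.0505 and 0.309% ± 0.0604 in the same order (SD, n = 3 each). RN7SL3 means were 1.26% ± 0.11, 1.14% ± 0.356 and 1.28% ± 0.352. The genes were picked by symbol with the high share of RN7SL1 known, so the means are a description. The fit below is of TMM-scaled counts of the same libraries and adds the interval of each difference.

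With the full length gRNA against mock, edgeR's quasi-likelihood test gave RN7SL1 a log2 fold change of 0.05 (95% interval -0.43 to 0.52, Benjamini-Hochberg adjusted p = 0.996). The value for RMRP was 0.13 (-0.35 to 0.60, adjusted p = 0.992). With the 16-nt gRNA against mock, edgeR gave RN7SL1 -0.01 (-0.49 to 0.46, adjusted p = 0.994) and RMRP -0.20 (-0.68 to 0.27, adjusted p = 0.978). Between the 16-nt and the full length gRNA, RN7SL1 stood at -0.06 (-0.54 to 0.41) and RMRP at -0.33 (-0.80 to 0.15), both with an edgeR adjusted p of 1.00. In each of the 3 comparisons 0 of the 2 tested members were called, against 0.00657% of all 15213 genes tested, which was B2M alone. B2M changed by -3.84, -2.85 and 0.99 on the log2 scale, and without full length replicate 2 the last was not called (0 genes called by edgeR, 81 at an unadjusted p under 0.05). At an unadjusted p under 0.05 neither member passed in this fit of all 9 libraries. Of all genes tested, 435 (2.86%), 377 (2.48%) and 141 (0.927%) did. DESeq2 also called neither member.

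**Figure D3:**
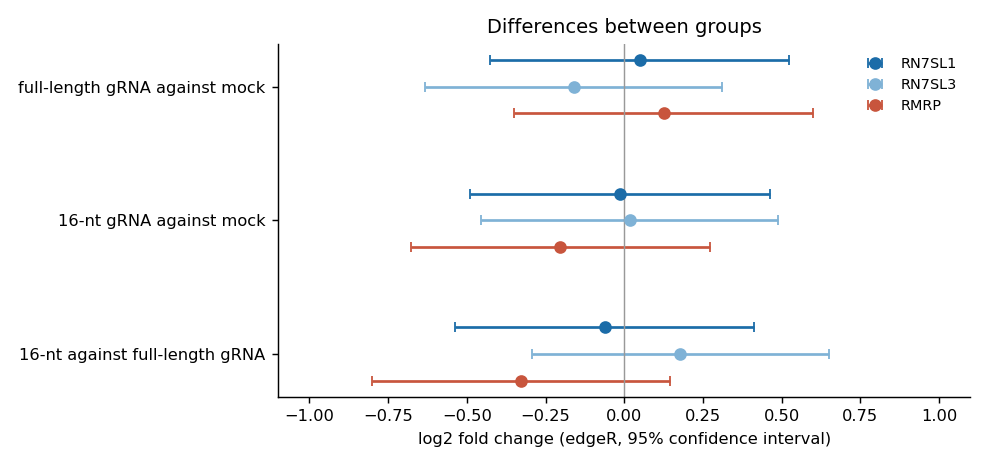
Log2 fold changes of RN7SL1, RN7SL3 and RMRP in the 3 comparisons, with 95% confidence intervals (bars), from the edgeR fit without the replicate number. Every interval crosses 0, and the RMRP interval for the 16-nt against the full length gRNA, -0.80 to 0.15, is the most one-sided.

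The intervals allow changes of some size in either direction, and single libraries set the sign of the small differences. RN7SL1 in full length gRNA against mock moved from 0.05 to -0.11 without mock replicate 3 and to -0.18 without full length replicate 3, or without both ETR replicate 3 libraries. RMRP in that comparison moved from 0.13 to -0.13 without mock replicate 3, and with the 16-nt gRNA against mock from -0.20 to 0.08 without mock replicate 1. The RMRP value between the gRNAs was below 0 in all 18 alternatives, at -0.45 to -0.16. Same-numbered libraries of the 2 ETR groups deviated together, and in each of these 3 pairs the RMRP share was lower with the 16-nt gRNA, at 0.321% against 0.431%, 0.243% against 0.334% and 0.362% against 0.407%. The RN7SL1 share was lower in 2 of the 3 pairs. In a fit of the 6 ETR libraries with the replicate number as a block, an alternative added after the data were seen, RMRP stood at -0.34 (95% interval -0.48 to -0.20), and its edgeR adjusted p of 0.499, the smallest among the alternatives, did not pass. RMRP was there among the 731 of 14916 genes with an unadjusted p under 0.05, and neither it nor RN7SL1 was called. RN7SL1 in that fit stood at -0.08 (-0.26 to 0.10, edgeR adjusted p = 0.975).

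The second question was whether libraries with the same replicate number went together. The labels do not say what the number stands for. For RN7SL1, the mean share over the 3 groups was 5.24% for number 1 (4.76% to 5.56%), 4.23% for number 2 (3.36% to 5.22%) and 5.54% for number 3 (4.0% to 6.66%). Within the ETR groups number 2 was lowest and number 3 highest, and in mock cells number 3 was lowest and number 1 highest. For RMRP the means were 0.410%, 0.310% and 0.332%, number 2 was again lowest in both ETR groups, and number 3 was lowest in mock cells. So the 2 ETR groups had the same lowest library and the mock group did not.

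In edgeR's test of both number terms together, RN7SL1 had an adjusted p of 0.486 and RMRP an adjusted p of 0.385. Of the 2 tested members 0 were called, against 1.15% of all genes tested (175 of 15213). Single libraries decided these results. Without mock replicate 2 the edgeR adjusted p of RN7SL1 was 0.0293, and without mock replicate 3 that of RMRP was 0.0365. Without both ETR replicate 3 libraries RMRP had an adjusted p of 0.0103. With no filter on low counts edgeR called both, at adjusted p = 1.13e-14 for RN7SL1 and 1.79e-09 for RMRP. Leaving out 1 library at a time, the edgeR adjusted p reached 0.864 for RN7SL1 and 0.805 for RMRP. RN7SL3 had an adjusted p of 0.414. The 175 calls became 568 without mock replicate 2, 173 without mock replicate 3, 0 without full length replicate 1 (edgeR, 1368 genes at an unadjusted p under 0.05) and 34 to 343 without any other 1 library.

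For the members, as for the typical gene, the largest part of the spread lay outside the means of groups and of replicate numbers. That part, the rest, also holds any pattern of the numbers that differs between groups. Of the sum of squares of log2 share over 9 libraries, 1.58% lay between groups for RN7SL1, 32.6% between replicate numbers and 65.8% in the rest. For RMRP these shares were 18.5%, 26.9% and 54.6%, and for RN7SL3 7.09%, 38.9% and 54.0%. The medians over all genes tested were 16.8%, 29.6% and 45.8%. The replicate number therefore took about as much of the members' spread as of the typical gene's. The size of the spread was another matter. The SD of log2 share was 0.31 for RN7SL1, 0.33 for RN7SL3 and 0.36 for RMRP, against a median of 0.10 in the 1522 genes of highest mean, where counting error is small. It was larger for RN7SL1 than in 98.9% of those genes, and for RMRP than in 99.2%. Over all genes tested, where the median SD was 0.16, these values were 77.7% and 81.3%. A wide spread was not particular to the members. MALAT1, a nuclear noncoding RNA made by Pol II, had TMM-scaled CPM of 3555 ± 962 in mock cells (SD, n = 3). It had 3756 ± 1175 for the full length gRNA and 4270 ± 921 for the 16-nt gRNA. RMRP had 3571 ± 1336, 3895 ± 571 and 3103 ± 678 in the same order.

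Of the 10 pairs of members, 1 could be compared, because 3 members were at 0. The shares of RN7SL1 and RMRP over 9 libraries gave Pearson's r = 0.668 and Spearman's rho = 0.667. The genes were picked by symbol with the high share of RN7SL1 known, so the correlations are given as a description, without p-values. Without the 2 libraries farthest from the median of RN7SL1, 16-nt replicate 2 and full length replicate 3, r was 0.529 over 7 libraries, without 16-nt replicate 2 alone it was 0.539, and without full length replicate 3 alone it was 0.664. Shares of 1 library have a common total. On log2 CPM with TMM-scaled sizes r was 0.767, and without both ETR replicate 3 libraries the r of shares was 0.726. RN7SL1 and RN7SL3 gave r = 0.838 and rho = 0.75, and r = 0.714 without the same 2 libraries. RN7SL3 and RMRP gave r = 0.221 and rho = 0.117, and r = -0.202 without full length replicate 2 and 16-nt replicate 2.

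**Figure D4:**
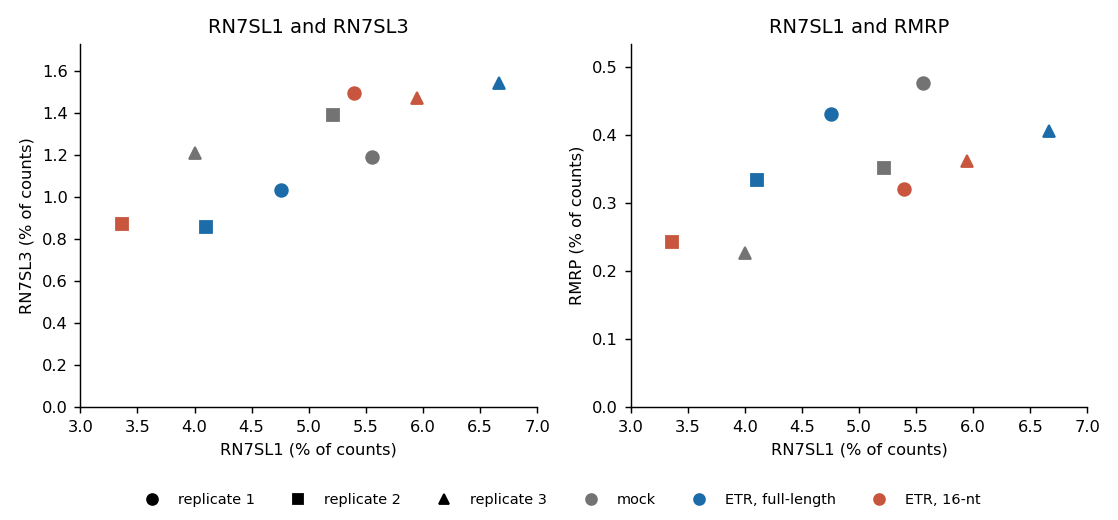
Share of counts (%) of RN7SL3 (left) and RMRP (right) against that of RN7SL1, 1 point per library, with colour for the group and shape for the replicate number. RN7SL3 rises with RN7SL1 more closely (r = 0.838) than RMRP does (r = 0.668).

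The protein partners of these RNAs were tested in the same fit, and none was called in any of the 3 group comparisons or by replicate number with edgeR. Over all genes tested, 0.00657% were called in each group comparison and 1.15% by replicate number. All 8 genes for SRP proteins and the SRP receptor were tested. Their median log2 fold change was -0.07 for the full length gRNA and -0.06 for the 16-nt gRNA, each against mock, and 0.00 over all genes in both, and no member passed an unadjusted p of 0.05. SRP68, which with SRP72 binds the RNA's large domain, stood at -0.12 with the full length gRNA, and SRP54, which binds the signal peptide, also at -0.12. SRP72 and SRP14 stood at -0.09 and -0.11 with the 16-nt gRNA. SRP14 and SRP54 had the smallest p of the list between the gRNAs, at -0.12 and 0.06.

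The 7 genes of the 7SK particle and P-TEFb had medians of -0.05 and 0.01 against mock. LARP7, which binds the end of 7SK RNA, stood at -0.16 with the full length gRNA and CCNT1, the cyclin of P-TEFb, at -0.11. HEXIM1, which inhibits P-TEFb when bound to 7SK, stood at 0.08 with the 16-nt gRNA against mock and 0.13 against the full length gRNA, and CCNT2 at -0.12 in both. The 11 genes of RNase P and RNase MRP proteins had medians of 0.04 and 0.00. RPP25L stood at 0.26 against mock with the full length gRNA and at 0.16 with the shorter one, POP7 at 0.16 and POP4 at -0.13 in those comparisons, and RPP21 and RPP40 at -0.20 and -0.22 between the gRNAs. All of these had edgeR adjusted p-values of 0.978 or above.

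The 13 genes of Pol III subunits had medians of -0.04 and -0.00 against mock. POLR3K was the single subunit with an unadjusted p under 0.05 between groups, at -0.21 with the full length gRNA (edgeR adjusted p = 0.992). Its TMM-scaled CPM were 60.4 to 68.0 in mock, 49.9 to 58.2 for the full length gRNA and 53.9 to 67.9 for the shorter one. POLR3C stood at -0.10 and -0.13 against mock, POLR3GL at 0.16 with the 16-nt gRNA, and POLR3K and POLR1D at 0.12 and 0.05 between the gRNAs. The 20 initiation factors and regulators had medians of -0.03 and 0.01. SSB, the La protein that binds the 3′ end of new Pol III transcripts, stood at -0.19 and BRF1, a TFIIIB subunit, at 0.17 with the full length gRNA. GTF3C3, a TFIIIC subunit, stood at -0.19 and SNAPC4, of the complex used at 7SK and RMRP promoters, at 0.28 with the 16-nt gRNA, and GTF3C6 and SSB at 0.21 and 0.15 between the gRNAs.

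Other Pol III transcripts were mostly near 0. Of 16 listed, RNY5 was not matched in the table, and 5 passed the filter on low counts. RN7SL3 held nearly all of their counts. BCYRN1, a brain-enriched RNA related to Alu elements, had 255 to 656 counts per library, RNU6-2, a U6 spliceosomal RNA, 123 to 240, VTRNA1-3, a vault RNA, 20 to 48, and RNY1, a Ro-associated RNA, 9 to 31. VTRNA2-1 was at 0, which allows at most 0.0902 to 0.126 CPM, the level that 3 counts would give. BCYRN1 stood at 0.39 and 0.36 against mock with the full length and 16-nt gRNA, RNU6-2 at 0.29 and 0.32, and VTRNA1-3 at -0.10 between the gRNAs, none called by edgeR.

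Pol II transcripts that also lack a poly(A) tail were listed for comparison, 34 small nuclear, nucleolar and Cajal body RNAs and 56 replication-dependent histone genes. Of these, 14 and 43 were tested and 0 called between groups, against 0.00657% of all genes tested in each comparison. RNU4ATAC, a minor spliceosome RNA, stood at 1.01 (edgeR adjusted p = 0.992) and 0.86 (edgeR adjusted p = 0.978) against mock, at 0.360 to 0.438 CPM in mock libraries, 0.447 to 1.26 for the full length gRNA and 0.658 to 0.891 for the shorter one. RNU5F-1 stood at -1.0 with the full length gRNA and 0.93 between the gRNAs, SNORD3B-2 at 0.54 with the 16-nt gRNA, and SCARNA5 at -0.34 between the gRNAs. Among histones H4C5 and H4C2 both stood at -0.31 with the full length gRNA, H2AC17 and H2AC4 at -0.46 and -0.27 with the 16-nt gRNA, and H2AC17 and H4C5 at -0.47 and 0.33 between the gRNAs. By replicate number, edgeR called 2 of 43 histones, H2BC13 (adjusted p = 0.0476) and H2BC17 (0.0286), and both listed nuclear long noncoding RNAs, MALAT1 and NEAT1 (0.0177 each), as against 1.15% of all genes tested, and that count over all genes ran from 0 to 568 on leaving out 1 library. MALAT1 and NEAT1 were not called between groups (0.08 and 0.30, then 0.26 and 0.36 against mock, and 0.19 and 0.06 between the gRNAs). The mitochondrial ribosomal RNAs MT-RNR1 and MT-RNR2 were not called, at -0.71 and -0.66, 0.33 and 0.19, and 1.05 and 0.85.

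Over all 9 libraries the listed Pol II structured RNAs and histones had mostly positive correlations with RN7SL1. Those of its protein partners were mostly negative, and weaker without both ETR replicate 3 libraries. Over 9 libraries, Pearson's r of TMM-scaled log2 CPM with RN7SL1 was positive for 14 of 14 Pol II structured RNAs, with a median of 0.64, and for 38 of 43 histones, with a median of 0.54. Over all 15212 other genes 50.6% were positive and the median was 0.01. The highest were H2AC15 (0.92), SCARNA6 (0.91), a guide RNA of Cajal bodies, and SNORA73B (0.88), a small nucleolar RNA. The 4 other Pol III transcripts tested besides RN7SL3 had a median r with RN7SL1 of 0.42, 3 of them positive, with RNY1 at -0.57. That median was -0.06, with 2 positive, without both ETR replicate 3 libraries. With RMRP those 4 had a median of -0.04 over all libraries, 2 of them positive. For the 8 SRP protein and receptor genes the median r with RN7SL1 was -0.29, 1 of 8 was positive (SRPRB, 0.09), and SRP54 was lowest at -0.71. That median was -0.09, with 3 of 8 positive, without both ETR replicate 3 libraries, and -0.46 without 16-nt replicate 2. RMRP, the RNA of another particle, had a median r of -0.15 with the same 8 genes, 2 of them positive. Genes of other lists lay lower with RN7SL1 than SRP54, among them POU2F1 (-0.90), SNAPC1 (-0.88) and LARP7 (-0.87). The negative r was thus not particular to RN7SL1 and its partners. These are descriptions over libraries that share their depth and scaling, and genes are not independent replicates.

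RMRP had a median r of 0.65 with histones, 40 of 43 positive, led by H2AC17 (0.91) and H2AC4 (0.90). With Pol II structured RNAs its median was 0.22 and 12 of 14 were positive, from SNORA73B (0.89) and SCARNA6 (0.83) down to SCARNA7 (-0.09). With its own 11 protein partners the median was 0.34 and 7 were positive, from POP7 (0.87) down to POP1 (-0.41). RN7SL1 had a median of 0.23 with those 11 genes, 8 of them positive, with POP7 at 0.67 and RPP25 at 0.68. The positive r was thus not particular to RMRP and its partners. With the 9 K-562 markers RMRP had a median of 0.58, 8 positive, and without mock replicate 3 that median was 0.27. Without mock replicate 3 the median r with histones was 0.44 for RN7SL1 and 0.50 for RMRP, and without both ETR replicate 3 libraries it was 0.78 and 0.76. Without 16-nt replicate 2 it was 0.41 and 0.61. The Pol II structured RNAs had 14 of 14 positive r with RN7SL1 without mock replicate 3 or 16-nt replicate 2 and 12 of 14 without both ETR replicate 3 libraries. With RMRP, 8 of 14 were positive without both ETR replicate 3 libraries (median 0.15), 8 of 14 without 16-nt replicate 2 (0.14) and 9 of 14 without mock replicate 3 (0.30). MALAT1 and NEAT1 had a median r with RN7SL1 of 0.15 over all libraries and -0.74 without both ETR replicate 3 libraries.

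**Figure D5:**
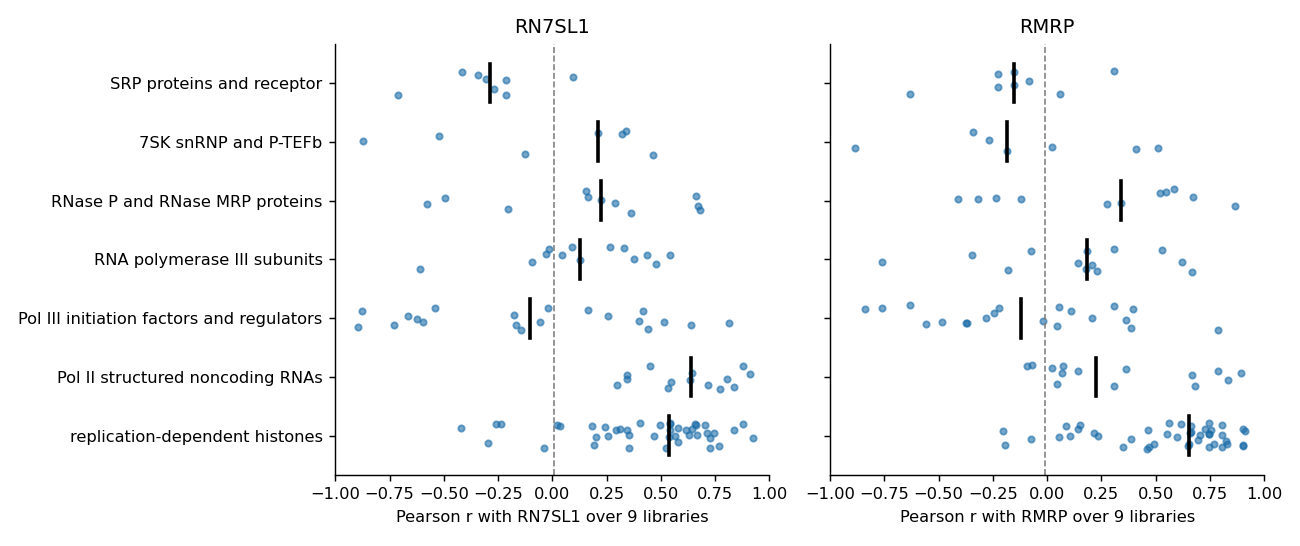
Pearson's r over 9 libraries between RN7SL1 (left) or RMRP (right) and each tested gene of 7 lists (points), with the list's median (black bar) and the median over all other genes tested (dashed line, near 0). Pol II structured RNAs lie wholly right of 0 for RN7SL1, and histones have medians of 0.54 and 0.65.

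The genes most like RN7SL1 across the 9 libraries were AC004951.2 (r = 0.98), with 6 to 18 counts per library, PRMT6 (0.95), an arginine methyltransferase gene with 985 to 1349 counts, and SIGIRR (0.95), an inhibitory receptor gene with 301 to 415. Those most like RMRP were LGALS1 (0.98), a galectin gene with 2910 to 4875 counts, ERI3 (0.96) with 1551 to 2117 and GEMIN7 (0.96), an SMN complex gene, with 507 to 701. With r over 0.8 there were 202 genes for RN7SL1 and 302 for RMRP among 15212. With 9 libraries and that many genes, the top of the list says little on its own.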

How the data were processed

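The authors deposited 1 table of raw gene counts for 9 libraries (no normalization). GRCh38 is the build named in the submitters' processing notes, which list STAR 2.7.6a, featureCounts, Subread 2.0.1, Trim Galore 0.6.6 and DESeq2 1.30.0 among their tools. For the annotation release and for how strand, overlapping genes and multiple matches were handled, nothing is given in the sources used here. Groups and replicate numbers come from the sample titles. Shares are counts over the sum of all rows. Of 59653 rows, 33525 had a count and 15213 passed edgeR's filterByExpr (minimum count 10). The tests used edgeR 4.0.16 (limma 3.58.1, R 4.3.3) with TMM scaling, 1 term per group over all 9 libraries, and Benjamini-Hochberg adjusted p under 0.05. The test of replicate number added a term per number. The code was tested on simulated data. DESeq2 1.42.0, other scalings and filters, and leaving out libraries were alternatives. Correlations are descriptive. The main fit of the groups did not use the replicate numbers. An alternative fit of the ETR libraries alone took them to pair the 2 ETR groups. The reason was that their 3 same-numbered pairs all deviated together from the group means across genes (r = 0.36, 0.20 and 0.57). The numbers were not taken to pair either ETR group with mock. Pairs of mock with full length libraries were also all above 0 (0.20, 0.03 and 0.21), and those of mock with 16-nt libraries were not (0.06, -0.19 and 0.20). This reason therefore does not clearly set the ETR pairs apart from those of mock with full length libraries. Some sequences are not reported here. Exon overlap came from the exon coordinates in the table. The members and gene lists were chosen with earlier results of these data known. Genes named besides the members are B2M, in each comparison the 2 genes per list of smallest p, neighbours within 10 kb, the 3 highest copies and the 3 genes most like each member. RN7SL128P's call, list genes named for their r and the histones called by replicate number were chosen after their values were seen.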

Additional observations from a re-analysis of the deposited data

How the results depend on the processing

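The directions of the small differences were unstable and no alternative called RN7SL1 or RMRP between groups. Leaving out 1 library at a time, RN7SL1 ran from -0.18 to 0.20 (full length gRNA against mock), -0.17 to 0.22 (16-nt gRNA against mock) and -0.22 to 0.17 (16-nt against full length gRNA), and RMRP from -0.13 to 0.41, -0.46 to 0.0823 and -0.45 to -0.16. Without both ETR replicate 3 libraries RN7SL1 stood at -0.18 with the full length gRNA against mock and 0.0086 between the gRNAs. With no filter 6, 13 and 4 genes were called in the 3 comparisons, and between the gRNAs 0 to 1 when 1 library was left out (0 without full length replicate 2, where 81 genes had an unadjusted edgeR p under 0.05). By replicate number the calls were 339 with DESeq2, 831 with no filter, 33 without both ETR replicate 3 libraries and 0 to 568 leaving out 1 library. The adjusted p of RN7SL1 there was 1.13e-14 with no filter and 0.0293 to 0.864 leaving out 1 library, and that of RMRP was 1.79e-09 with no filter, 0.0103 without both ETR replicate 3 libraries and 0.0365 to 0.805 leaving out 1 library. The cause was not tested. The correlation of RN7SL1 with RMRP had r = 0.726 without both ETR replicate 3 libraries, 0.594 with RN7SL1 and RN7SL3 counts added (chosen after seeing the data), and 0.539 to 0.757 leaving out 1 library.

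The same-numbered libraries did not all deviate together (r from -0.19 to 0.57 over 9 pairs, 6 of them over 0.1, across genes). The numbers were therefore not taken to pair mock with ETR libraries. Pairs of mock with full length libraries were all above 0, however (0.20, 0.03 and 0.21), and 8 of 9 libraries were most like one of their own number. With the replicate block, 1 gene was called in each comparison. RN7SL1 stood at 0.01, -0.07 and -0.08 and RMRP at 0.14, -0.18 and -0.33, and the block changed no call, nor did the block in the 6 ETR libraries alone (-0.08 and -0.34 between the gRNAs). Binomial intervals on the shares were narrow beside the spread between libraries.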
